A study of Mus musculus with 6 samples.

Results

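The cells described here are alveolar fibroblasts of the mouse lung that carried transcripts of Npnt (nephronectin), Slc7a10 and related marker genes. They were picked from a table of unique molecular identifier (UMI) counts, in which each captured RNA molecule is counted once. A barcode entered if at least 500 genes were detected in it, mitochondrial genes gave no more than 10% of its UMIs, and it held at least 2 UMIs of the fibrillar collagen genes Col1a2 and Col3a1 together, a UMI of at least 3 of 8 marker genes (Npnt, Slc7a10, Wnt2, Ces1d, Hsd11b1, Scube2, Colq and Cdo1), and no UMI of Hhip, Pi16, Cdh22, Kcnk2 or Ptprc. This gave 585 cells of 9994 kept barcodes (5.85%, 95% Clopper-Pearson interval 5.40 to 6.33%). They were set against 2136 other mesenchymal cells, which held 3 or more UMIs of Col1a2 and Col3a1. The 585 cells made up 21.5% of the 2721 mesenchymal cells (19.97 to 23.09%). Alveolar fibroblasts counted from 2 collagen UMIs and the other cells from 3, and 61 of the 585 held exactly 2, which raises this share.

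The study profiled SMA-GFP;Tbx4cre;RosaTdTomato mice, in which GFP reports smooth muscle actin (SMA) and tdTomato (Tm) marks the descendants of cells that expressed Cre from Tbx4, a T-box gene of lung mesenchyme. Lungs were taken on day 21 after bleomycin, which injures the lung and induces fibrosis, and on day 0. At each day, cells without the surface antigens EpCAM, CD31 and CD45 were sorted through 3 gates, 1 sample per gate and day: those negative for both reporters (SMA-Tm-), those with tdTomato alone (SMA-Tm+) and those with both (SMA+Tm+). They were sequenced with a droplet 3′ method. The table pools the 6 samples: barcodes end in a suffix of 1 to 6 that the labels do not tie to a gate or day, so days and gates were not compared, no p-value was computed, and every interval covers counting error only. The number of mice behind each sample is not stated in these sources.

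Alveolar fibroblasts lie beside the epithelium of the air spaces and support it with matrix and growth factors. In mouse lung they are marked by the transmembrane collagen Col13a1, the transcription factor Tcf21, the integrin subunit Itga8 and the growth factor receptor Pdgfra, and some of them store lipid and are called lipofibroblasts. Nephronectin is a basement membrane protein that binds integrin α8β1. Among the other marker genes, Slc7a10 carries small neutral amino acids, Wnt2 is a Wnt ligand, Hsd11b1 regenerates active glucocorticoid inside the cell, Ces1d is a carboxylesterase, Cdo1 oxidises cysteine towards taurine, Colq anchors acetylcholinesterase to the matrix and Scube2 is a secreted protein that helps release Hedgehog ligands.

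Suffixes 1 to 6 held 46, 16, 12, 469, 27 and 15 of the alveolar fibroblasts. The 469 cells of suffix 4 therefore weigh most in all pooled values. The share of alveolar fibroblasts among the mesenchymal cells was 8.06% in suffix 1, 26.7% in suffix 2, 27.3% in suffix 3, 23.9% in suffix 4, 61.4% in suffix 5 and 41.7% in suffix 6. The unlike collagen thresholds bear on these shares too. The interval of suffix 1 (5.96 to 10.6%) lay below those of the other 5, and the interval of suffix 5 (45.5 to 75.6%) lay above that of suffix 4 (21.99 to 25.8%). The median alveolar fibroblast held 2612 UMIs, 1355 genes and 3.94% mitochondrial UMIs, against 3095.5 UMIs, 1468 genes and 3.02% in the other mesenchymal cells. In the whole table, 55 barcode sequences occurred under more than 1 suffix, and 2 alveolar fibroblasts carried such a sequence.

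**Figure D1:**
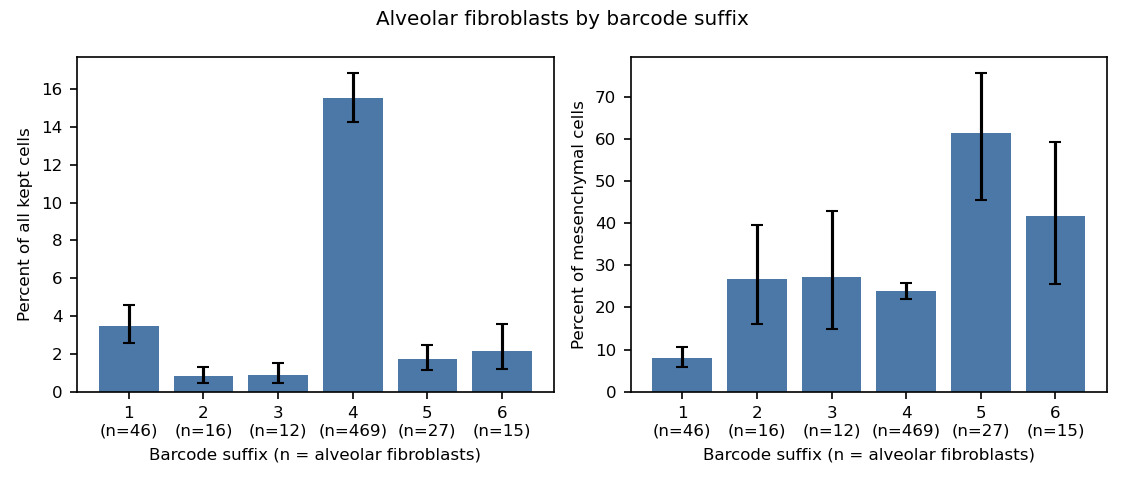
Share of alveolar fibroblasts among all kept cells (left, percent) and among mesenchymal cells (right, percent) for each barcode suffix. Bars are shares, lines 95% Clopper-Pearson intervals and n the number of alveolar fibroblasts. Suffix 4 holds 469 of the 585 cells, while the highest share of mesenchymal cells, 61.4%, is in suffix 5.

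Suffix 3 stood apart from the others. Its 12 alveolar fibroblasts held 1852 CPM (the UMIs of a gene or list as a share of all UMIs of the group, scaled to the same total) of 7 Col13a1 fibroblast markers together, against 5880 to 7954 CPM in the other 5 suffixes. They also held 9384 CPM of 14 epithelial markers, of which 98.0% came from 1 cell, and 2796 CPM of 9 mesothelial markers, of which 76.1% came from 1 cell. Of the 79387 UMIs of these 12 cells, the cell with the most Upk3b, a mesothelial gene, held 31034. The cell with the most Sftpc, a surfactant gene, held 10912. These 2 large cells thus weigh heavily on every level of suffix 3 in CPM. Levels of suffix 3 without them were not computed. With suffixes 1 and 4 alone, 265 genes were 2-fold higher and 175 were 2-fold lower, against 260 and 158 with all suffixes. Suffixes also differed in sex-linked genes. Alveolar fibroblasts of suffix 1 held 21 UMIs of the Y-linked gene Eif2s3y and none of Xist, and those of suffix 4 held none of Eif2s3y and 3121 of Xist.

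Of the kept barcodes, 2954 held 2 or more collagen UMIs, and 842 of these held 3 or more marker genes. The requirement of no UMI of 5 genes then removed 257 cells, of which 157 held Kcnk2, 67 Hhip, 43 Cdh22, 23 Ptprc and 14 Pi16 (a cell can hold several). Kcnk2, a potassium channel gene, was the sole reason for 125 removals. Members held a median of 5 marker genes, and 128, 108, 120, 125, 80 and 24 cells held 3, 4, 5, 6, 7 and 8 of them. Just outside the threshold, 169 cells that met every other condition held 2 marker genes.

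The marker genes themselves chose the cells, so their levels are a description. Npnt was at 2066 CPM in alveolar fibroblasts, against 344 CPM in other mesenchymal cells, and had a UMI in 98.1% and 31.2% of them. Slc7a10 was at 330 CPM, against 20.6 CPM. Hsd11b1 was at 1100 CPM, against 152 CPM, and Cdo1 at 817 CPM, against 114 CPM. Fewer cells carried the rest of the markers: Ces1d had a UMI in 55.4% of alveolar fibroblasts and 10.0% of other mesenchymal cells, Scube2 in 41.0% and 5.43%, Wnt2 in 39.3% and 5.01%, and Colq in 39.0% and 4.49%. Across suffixes 1 to 6, Npnt in alveolar fibroblasts was at 2088, 1604, 920, 2097, 2491 and 3054 CPM. Slc7a10 was at 402, 234, 113, 321, 646 and 503 CPM. Both were lowest in suffix 3. The collagens of the rule were lower in the alveolar fibroblasts than in the other mesenchymal cells: Col1a2 was at 1074 CPM, against 1746 CPM, and Col3a1 at 1475 CPM, against 2238 CPM. Alveolar fibroblasts needed 2 UMIs of these genes and the other cells 3, and 61 alveolar fibroblasts held exactly 2. The thresholds thus bear on this direction, which is a description too.

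Of the 8 marker genes, 5 had a promoter window in the RefSeq table of build GRCm38.p6 (250 bases before to 50 after the start of the gene). The windows of Npnt (the first of 2 in the table) and Slc7a10, the genes that name the cells, are printed with those of Hsd11b1 and G0s2, a pair of neighbouring genes that were both higher in the alveolar fibroblasts. Each runs 5′ to 3′ along the strand of its gene. Capitals mark CAGCTG, the E-box form searched because Tcf21 is a basic helix-loop-helix factor and such factors bind E-boxes.
Npnt: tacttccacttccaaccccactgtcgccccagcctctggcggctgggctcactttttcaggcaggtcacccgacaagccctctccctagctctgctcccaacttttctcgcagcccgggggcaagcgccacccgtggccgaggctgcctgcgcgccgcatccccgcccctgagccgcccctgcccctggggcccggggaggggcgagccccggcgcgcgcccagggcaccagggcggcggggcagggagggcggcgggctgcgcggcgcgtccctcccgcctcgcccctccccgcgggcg
Slc7a10: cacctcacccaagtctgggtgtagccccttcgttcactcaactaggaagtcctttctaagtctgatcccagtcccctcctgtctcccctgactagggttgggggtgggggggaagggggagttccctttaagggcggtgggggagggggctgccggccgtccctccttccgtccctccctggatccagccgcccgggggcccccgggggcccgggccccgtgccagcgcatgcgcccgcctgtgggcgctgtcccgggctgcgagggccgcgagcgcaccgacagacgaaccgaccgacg
Hsd11b1: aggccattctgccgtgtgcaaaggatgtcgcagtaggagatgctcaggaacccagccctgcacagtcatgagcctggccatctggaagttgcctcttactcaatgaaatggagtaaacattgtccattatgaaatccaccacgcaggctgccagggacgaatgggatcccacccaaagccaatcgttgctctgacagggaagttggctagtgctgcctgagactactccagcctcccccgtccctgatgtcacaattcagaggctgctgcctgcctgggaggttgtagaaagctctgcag
G0s2: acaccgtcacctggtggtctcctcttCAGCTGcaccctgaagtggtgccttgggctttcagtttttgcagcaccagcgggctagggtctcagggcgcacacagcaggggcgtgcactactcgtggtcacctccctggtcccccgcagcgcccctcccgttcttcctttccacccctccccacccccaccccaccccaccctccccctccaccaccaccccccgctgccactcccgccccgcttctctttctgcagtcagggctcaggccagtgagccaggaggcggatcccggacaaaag
These windows lie on the minus strand at chr3:132950242-132950541 (Npnt), on the plus strand at chr7:35186135-35186434 (Slc7a10), and on the minus strand at chr1:193242311-193242610 (Hsd11b1) and chr1:193273139-193273438 (G0s2). CAGCTG reads the same on both strands. It occurred once in the G0s2 window, 224 bases before the start, and not in either window of Npnt or in those of Slc7a10, Hsd11b1, Wnt2, Scube2, Col13a1, Tcf21 or Itga8. Of 32851 promoter windows of the same length, 16.3% held it. The wider form CANNTG, which contains CAGCTG, was in 72.3% of all windows, and occurred 2 times in the G0s2 window, 1 time in that of Hsd11b1 and in neither of the printed Npnt and Slc7a10 windows. The Npnt and Slc7a10 windows held 32 and 24 CG dinucleotides, those of Hsd11b1 and G0s2 held 6 and 13, and the median window held 7. On GRCm38, Npnt spans chr3:132881745-132950291 (minus strand), Slc7a10 chr7:35186385-35201114 (plus strand), Col13a1 chr10:61838236-61979108, Tcf21 chr10:22817281-22820174 and Itga8 chr2:12106632-12301922 (all minus strand), and the RefSeq start of Hsd11b1 lies inside its GENCODE span. A match or its absence describes these letters and says nothing of binding.

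The name of the cells was set beside markers the rule did not use. All 7 Col13a1 fibroblast markers (Col13a1, Tcf21, Itga8, Limch1, Fgfr4, Cxcl14 and Pdgfra) were present, at 6680 CPM together in alveolar fibroblasts, against 2058 CPM in other mesenchymal cells, and 99.7% of alveolar fibroblasts held at least 1 of their UMIs. The genes that the rule sets to 0 (Hhip, Pi16 and Ptprc) are left out of the sums that follow. Cells with these genes could be other mesenchymal cells but not alveolar fibroblasts. Lower sums of ductal, adventitial and immune markers are thus built in part into the comparison, and they are a description. The other 9 markers of ductal myofibroblasts were at 463 CPM, against 1605 CPM, with Wif1 at 0. Tagln (transgelin), an actin-binding protein, gave 589 of their 815 UMIs in alveolar fibroblasts and was not lower in them, at 335 CPM, against 304 CPM. The other 9 markers of adventitial Col14a1 fibroblasts were at 1655 CPM, against 3518 CPM. The 10 pericyte and mural markers were at 93.2 CPM, against 246 CPM. Rgs5 was at 0, but had only 14 UMIs in the other mesenchymal cells. The 4 Rbp4 Adam23 fibroblast markers were at 128 CPM, against 478 CPM, and 6 Schwann and neural markers at 3.41 CPM, against 27.7 CPM. The 5 Adh7 Bmp7 Notum fibroblast markers were at 155 CPM, against 159 CPM. Of their UMIs in alveolar fibroblasts, 39.0% came from 1 cell. Notum itself was at 22.2 CPM, against 11.4 CPM. Immune markers were spread over cells: 13 of them were at 392 CPM, against 1101 CPM, with a UMI in 53.0% of alveolar fibroblasts and 9.86% of the UMIs in the top cell. With Ptprc counted as well, 54.9% of other mesenchymal cells held an immune marker UMI. The 12 endothelial markers were at 178 CPM, against 182 CPM, and the 9 mesothelial markers at 232 CPM, against 344 CPM, with 30.6% and 41.4% of the UMIs in alveolar fibroblasts from 1 cell. The 14 epithelial markers were at 482 CPM, against 163 CPM, and 86.1% of these UMIs in alveolar fibroblasts came from 1 cell. The part of these markers in the results was not tested except where a value without these cells is given.

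Genes outside the rule were then compared by the ratio of summed CPM in alveolar fibroblasts over other mesenchymal cells, for the 3549 genes at 50 CPM or more in either. Of these, 260 (7.33%) were 2-fold or more higher in alveolar fibroblasts and 158 (4.45%) were 2-fold or more lower, and the median log2 ratio of all was 0.08. Within suffix 4 alone, 258 of 3511 measured genes (7.35%) were 2-fold higher and 173 (4.93%) lower, and 244 of the 260 higher genes and 154 of the 158 lower genes passed the same limit there. Because the cells were chosen on marker genes and on genes at 0, these counts show which genes varied with those of the rule and are not a test.

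The best-known genes of alveolar fibroblasts were nearly all among the higher ones. Of 18 measured genes of a list of such genes outside the rule, 16 were 2-fold higher and none was 2-fold lower, with a median log2 ratio of 1.85, beside 7.33% higher and a median of 0.08 over all measured genes. The list was drawn up with earlier results of these data known. Col13a1 was at 492, 368, 126, 418, 584 and 604 CPM in alveolar fibroblasts of suffixes 1 to 6, and at 418 CPM in all of them, against 75.0 CPM in other mesenchymal cells (log2 ratio 2.48, 2.32 to 2.64). Suffix 3, where the 2 large cells weigh on every level, was the lowest of the 6. Tcf21, which is required for the lipofibroblast lineage in mouse lung, was at 974, 902, 176, 846, 815 and 1107 CPM in the suffixes, and at 827 CPM in all suffixes together, against 192 CPM (log2 ratio 2.11, 2.01 to 2.22). Itga8 was at 1024, 869, 315, 707, 723 and 1208 CPM, and at 719 CPM in all suffixes together, against 160 CPM (2.17, 2.06 to 2.29). In 5 of the 6 suffixes these 3 genes exceeded the level of the pooled other mesenchymal cells by more than 4-fold. Suffix 3 was at or under that level for Tcf21 and above it for Col13a1 and Itga8. Pdgfra, the receptor for PDGF-A, had a log2 ratio of 1.42. The members of the list under the limit were Figf (VEGF-D), at 0.95 (1.04 within suffix 4), and Adh1, an alcohol dehydrogenase, at -0.05.

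The share of cells with a UMI was also higher for Col13a1 and Tcf21. Col13a1 had a UMI in 63.4% of alveolar fibroblasts (59.4 to 67.3%), 16.7% of other mesenchymal cells and 0.237% of 4211 immune cells that should lack it (Ptprc present, no collagen UMI). The median depth of those immune cells was 3216 UMIs. With every cell thinned to 1500 UMIs, which left out 49 alveolar fibroblasts, 257 other mesenchymal cells and 500 immune cells, the shares were 47.4%, 9.74% and 0.0539%. For Tcf21 the unthinned shares were 73.7%, 34.0% and 0.427%, and the thinned shares 59.9%, 20.8% and 0.0539%.

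**Figure D2:**
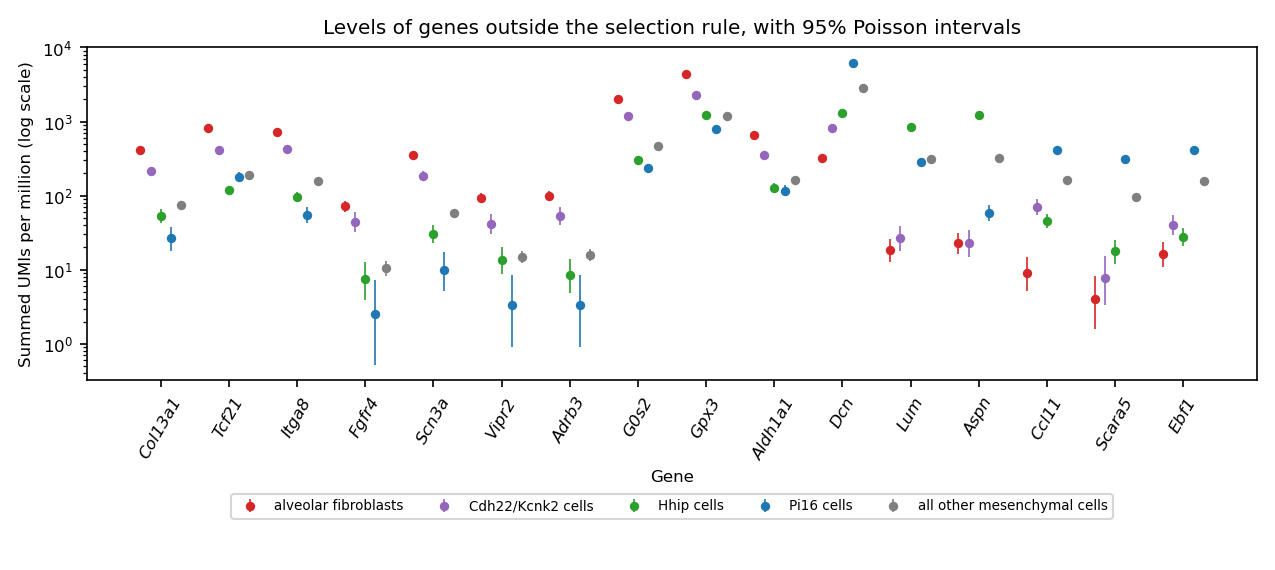
Level of 16 genes outside the rule (CPM from summed UMIs, log axis) in alveolar fibroblasts, in cells with Cdh22 or Kcnk2, in cells with Hhip, in cells with Pi16 and in all other mesenchymal cells. Points are pooled levels and lines 95% Poisson intervals. Col13a1, Tcf21 and Itga8 are highest in alveolar fibroblasts and next highest in the Cdh22/Kcnk2 cells, and Dcn is lowest in alveolar fibroblasts.

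The 20 genes with the largest ratios that also passed the limit within suffix 4 included several receptors and channels. Fgfr4, a receptor of fibroblast growth factors, was at 71.6 CPM, against 10.5 CPM (log2 ratio 2.77, 2.35 to 3.19). Adrb3, the β3-adrenergic receptor best known from fat cells, was at 100 CPM, against 15.96 CPM (2.65, 2.30 to 2.99). Vipr2, a receptor of vasoactive intestinal peptide, was at 93.8 CPM, against 15.03 CPM (2.64). Scn3a, a voltage-gated sodium channel, was at 354 CPM, against 57.6 CPM (2.62, 2.44 to 2.80). Epha1, an ephrin receptor, had a log2 ratio of 2.85, and Gja5, the gap junction protein connexin 40, one of 2.93. All these ratios were at or above 2.42 within suffix 4. Cells with Cdh22 or Kcnk2, a class described below, carried these genes too. With cells thinned to 1500 UMIs, Fgfr4, Adrb3 and Vipr2 had a UMI in 8.59%, 12.5% and 7.81% of that class. In alveolar fibroblasts the thinned shares were 12.1%, 14.7% and 14.9%. Scn3a, Epha1 and Gja5 had a UMI in 28.1%, 3.13% and 9.38% of the class, against 41.8%, 7.65% and 15.1% of alveolar fibroblasts.

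Genes of matrix modification and of the cell surface were also in this group. Chst3, a chondroitin sulfotransferase, had the second highest ratio, with 82.4 CPM, against 8.38 CPM (log2 ratio 3.30, 2.86 to 3.75). Cpm, the membrane-bound carboxypeptidase M, was at 82.4 CPM, against 9.18 CPM (3.17, 2.74 to 3.60). Bmper, a secreted protein that binds bone morphogenetic proteins, was at 90.4 CPM, against 11.2 CPM (3.02, 2.63 to 3.41). Wisp2, a matricellular protein, was at 565 CPM, against 114 CPM (2.31, 2.18 to 2.44). In thinned cells with Cdh22 or Kcnk2, Chst3, Cpm, Bmper and Wisp2 had a UMI in 4.30%, 5.47%, 6.25% and 27.0%. The thinned shares of alveolar fibroblasts were 12.1%, 9.89%, 12.9% and 49.4%. Mapt, the microtubule-binding protein tau, had a log2 ratio of 2.71, Cox8b, a subunit of cytochrome c oxidase, one of 2.77, and Prr5l, which binds the mTORC2 complex, one of 2.36. The non-coding RNA host gene Snhg11 was at 2.58 and 1810011O10Rik (Tcim) at 2.40. Gm14964 (2.74) and Adap2os (94.9 CPM, against 16.8 CPM) are annotated as antisense genes, and Adap2os lies within Adap2 (2.57) on the opposite strand. These sources do not say whether counting used the strand, so reads of Adap2 and Adap2os cannot be told apart.

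The highest ratio of all, a log2 of 7.67 for Jchain, the joining chain of antibodies made by plasma cells, came from 1 cell: it held 1039 of the 1048 Jchain UMIs, and 1.71% of alveolar fibroblasts held any, against 0.983% of other mesenchymal cells. Among the 260 higher genes, 4 drew 25% or more of their UMIs from 1 member: Jchain (99.1%), Sftpc, a surfactant protein (95.8%), Gm26870 (51.0%) and Slpi, a protease inhibitor (49.3%). Within suffix 4, Sftpc had a log2 ratio of -2.82.

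The 10 genes with the lowest ratios included proteoglycans, chemokines and connexin 43. Lum, a small leucine-rich proteoglycan, was at 18.8 CPM, against 311 CPM (log2 ratio -4.05, -4.59 to -3.56). Aspn (asporin), of the same family, was at 22.7 CPM, against 327 CPM (-3.85, -4.34 to -3.40). Ccl11, the eosinophil chemokine eotaxin, was at 9.09 CPM, against 163 CPM (-4.16, -4.97 to -3.46). Scara5, a ferritin receptor, was at 3.98 CPM, against 95.2 CPM (-4.58). The transcription factor Ebf1 was at 16.5 CPM, against 157 CPM (-3.25), and Serpinf1, which encodes pigment epithelium-derived factor, at 14.2 CPM, against 170 CPM (-3.59). P2ry14, a receptor of UDP-sugars, had 6 UMIs, against 927, and Gja1, connexin 43, had 7 UMIs, against 545. The chemokine gene Cxcl13 and the cadherin gene Cdh4 had 2 UMIs each in alveolar fibroblasts, against 590 and 389 UMIs, with log2 intervals of -9.16 to -4.25 and -8.56 to -3.65. Few cells carried Cxcl13: it had a UMI in 0.342% of alveolar fibroblasts and 1.12% of other mesenchymal cells, where 32.0% of its UMIs came from 1 cell, whereas Cdh4 had one in 0.171% and 12.6%. Low Gja1 (-4.19) stood beside high Gja5 (2.93), both connexin genes. The low genes were also rare in cells with Cdh22 or Kcnk2, a class described below. P2ry14, Cdh4, Scara5 and Gja1 had a UMI in 0.377%, 1.51%, 2.64% and 2.64% of that class. Aspn, Serpinf1, Lum, Ccl11 and Ebf1 had one in 6.04%, 6.79%, 7.55%, 9.06% and 9.43%. In alveolar fibroblasts the shares of these genes ran from 0.171% to 4.96%.

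Suffix 1 gave a separate view of these 30 genes, from 46 cells with 99618 UMIs in which 731 of 4262 measured genes (17.2%) were 2-fold higher and 465 (10.9%) lower. All 10 low genes were 2-fold lower in its alveolar fibroblasts (a gene at 0 UMIs was set at 3 counts), and 18 of the 20 high genes were 2-fold higher. The other 2 gave no ratio there: Jchain had 0 UMIs in them, and Cox8b had 3. Fgfr4 rested on 1 UMI in suffix 1. The ratios of Gm14964 (3.68), Scn3a (3.67) and Col13a1 (3.44) were larger in suffix 1 than in suffix 4, where they were 2.66, 2.53 and 2.37, and that of Wisp2 (1.43) was smaller than in suffix 4 (2.47).

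**Figure D3:**
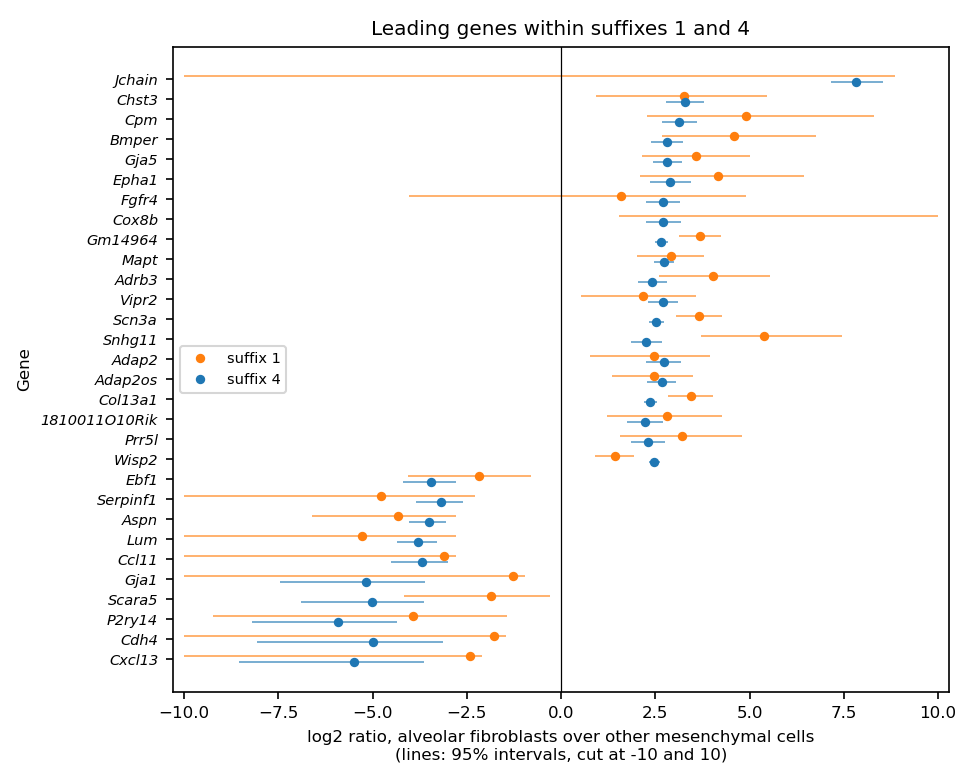
log2 ratio of alveolar fibroblasts over other mesenchymal cells for the 20 highest and 10 lowest genes, within suffix 1 (orange) and suffix 4 (blue), with 95% intervals drawn to -10 or 10. Points for genes at 0 UMIs in one group are bounds set at 3 counts, and genes with too few UMIs in suffix 1 have no point. All points of a gene lie on the same side of 0, and the intervals of suffix 1 are wider.

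The ligand Npnt can be read beside its receptor. Itga8, one chain of the nephronectin receptor, had a log2 ratio of 2.17, and Itgb1, the other chain, was at 384 CPM, against 242 CPM (0.67, 0.54 to 0.80). Of 12 measured genes of the receptor and the basement membrane, 3 were 2-fold higher (Itga8, the laminin chain Lamb1, 1.27, and Col18a1, 1.14) and none was lower, beside 7.33% higher and 4.45% lower of all measured genes. Their median was 0.47, beside 0.08 over all. The type IV collagen genes Col4a1 (0.38) and Col4a2 (0.64) and the laminin chain Lamc1 (0.56) were under the limit. Of 8 measured non-fibrillar collagen genes, Col13a1 and Col23a1 (1.24), both transmembrane collagens, were 2-fold higher, and Col14a1, a marker of adventitial fibroblasts, was 2-fold lower (-2.10).

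Some amino acid transporters beside Slc7a10 were higher too. Of 8 measured genes, 3 were 2-fold higher and none lower, with a median of 0.74, beside 7.33%, 4.45% and 0.08 for all measured genes. Slc1a4, a neutral amino acid transporter, was at 54.0 CPM, against 14.1 CPM (1.94), Slc38a5, a glutamine transporter, at 146 CPM, against 42.6 CPM (1.78), and Slc6a6, the taurine transporter, at 284 CPM, against 99.1 CPM (1.52). Of 8 transporter genes measured against the cells with Cdh22 or Kcnk2 described below, none was 2-fold higher (median 0.50). Against all other mesenchymal cells, none of 4 measured genes of cysteine, taurine and glycine metabolism passed the limit. The highest of them, Csad, which acts after Cdo1 in taurine synthesis, was at 111 CPM, against 56.9 CPM (0.97, 0.72 to 1.22).

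Genes of glucocorticoid activation and response passed the limit about as often as all genes: of 12 measured, 1 was 2-fold higher and 1 lower, beside 7.33% and 4.45% of all measured genes. H6pd, which makes NADPH for Hsd11b1 in the endoplasmic reticulum, was at 301 CPM, against 107 CPM (log2 ratio 1.49, 1.33 to 1.65). It was the higher one, and Mt1, a metallothionein, the lower one (-1.35). The glucocorticoid receptor Nr3c1 was at 0.27 and the targets Tsc22d3, Per1 and Klf9 at 0.91, 0.07 and -0.01. The list median was 0.17, beside 0.08 over all.

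Enzymes of detoxification and esterase genes gave 4 higher and no lower genes of 13 measured, with a median of 0.70, where all measured genes had 7.33% higher, 4.45% lower and a median of 0.08. Aldh1a1, which makes retinoic acid, was at 669 CPM, against 163 CPM (log2 ratio 2.03, 1.92 to 2.15). Gpx3, a secreted glutathione peroxidase, was at 4350 CPM, against 1189 CPM (1.87), Gsta3, a glutathione transferase, at 295 CPM, against 83.8 CPM (1.82), and Inmt, a methyltransferase, at 4626 CPM, against 1585 CPM (1.55). Ces1d belongs to a family of close paralogs in the mouse, so its counts are uncertain where reads could be shared. Of the genes around acetylcholinesterase, Lrp4, a receptor known from the neuromuscular junction, was the 1 measured gene, at 1.40.

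Lipid genes were mixed. Of 15 measured genes, 4 were 2-fold higher and 2 lower (7.33% and 4.45% over all measured genes), with a median of 0.32. G0s2, an inhibitor of the triglyceride lipase ATGL, was at 1144, 1503, 390, 2085, 3583 and 2618 CPM in suffixes 1 to 6, and at 2010 CPM in all suffixes together, against 470 CPM (log2 ratio 2.10, 2.03 to 2.16). Suffix 5 was highest, and suffix 3, where the 2 large cells weigh on the level, was lowest. Plin2, the coat protein of lipid droplets, was at 99.5 CPM, against 44.2 CPM (1.17), the fatty acid transporter Slc27a3 at 1.87 and Angptl4, an inhibitor of lipoprotein lipase, at 1.81. Lpl, lipoprotein lipase itself and a common lipofibroblast marker, was at 47.7 CPM, against 141 CPM (-1.56), and Fabp5, a fatty acid binding protein, was at -1.23 (-1.85 within suffix 4 and -0.67 within suffix 1), with 24.4% of its UMIs from 1 cell.

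Growth factor genes split as well. Of 19 measured niche factors, 6 were 2-fold higher and 5 lower, beside 7.33% and 4.45% of all measured genes, with a median of 0.34. Bmp3 was at 319 CPM, against 100 CPM (log2 ratio 1.67), Vegfa at 130 CPM, against 47.5 CPM (1.45), Angpt1, a ligand of the endothelial receptor Tie2, at 1.33, Bmp4 at 1.16, Kitl at 1.02 and the guidance ligand Slit2 at 1.01 (0.95 within suffix 4). Il33 (-2.91), Ntn1 (-2.58), Gdf10 (-1.93), Tgfb3 (-1.57) and Sema3c (-1.37) were the lower ones. Fgf10 and Fgf7, ligands for the alveolar epithelium, were at 0.35 and 0.29. Of 18 measured receptor genes, 4 were 2-fold higher and none lower, against the same shares over all genes: Fgfr4, Pdgfra, Fgfr3 (1.10) and Gfra2 (1.02, and 0.87 within suffix 4) were higher. Pdgfrb, used as a pericyte marker, was at -0.92. Apart from Wnt2, which the rule used, no measured Wnt gene of 11 was 2-fold higher, and Wnt5a, a non-canonical ligand (-1.95), and Rspo1, an enhancer of Wnt signals (-1.13), were lower (7.33% higher and 4.45% lower over all). Rspo1 drew 52.8% of its UMIs from 1 cell, and was at -2.77 within suffix 4, and Il33 drew 50% from 1 cell. The Wnt target Axin2 was at 0.62.

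Transcription factors other than Tcf21 varied in both directions, with 5 of 29 measured genes 2-fold higher, 4 lower and a median of 0.04, beside 7.33%, 4.45% and 0.08 for all measured genes. Foxf2 (1.44), Snai2 (1.42), Snai1 (1.10) and Tbx2 (1.04, and 0.96 within suffix 4) were the other higher ones, and Ebf1, Gata6 (-2.18), Klf4 (-1.97) and Osr1 (-1.18, and -0.28 within suffix 1) the lower ones. Tbx4, the gene that drives Cre in these mice, was at 76.2 CPM in alveolar fibroblasts (63.8 to 90.2 CPM). In other mesenchymal cells it was at 50.4 CPM (45.5 to 55.7 CPM). Tbx4 had a UMI in 19.5% of alveolar fibroblasts. The share was 20.3% in cells with Hhip, 21.5% in cells with Cdh22 or Kcnk2 and 6.40% in cells with Pi16. With cells thinned to 1500 UMIs, these shares were 11.0%, 13.7%, 6.64% and 3.86% in the same order.

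Contractile and fibrosis genes gave a mixed account too. Acta2, smooth muscle actin, which the GFP reporter follows, was at 17.0 CPM, against 156 CPM (log2 ratio -3.19, -3.77 to -2.67), and all its 30 UMIs in alveolar fibroblasts were in suffix 4. Its level there was 20.6 CPM, and the upper limits in the other suffixes lay between 37.0 and 124 CPM. Mustn1 (-2.98), Myl9 (-1.58) and Tpm2 (-1.06) were lower too, and Mylk, myosin light chain kinase, was higher, at 959 CPM, against 443 CPM (1.11), while Tagln was at 0.14. Of 11 measured contractile genes, 1 was thus higher and 4 lower, with a median of -0.02, where all measured genes had 7.33% higher, 4.45% lower and a median of 0.08. Of 29 measured matrix genes linked to fibrosis, 5 were 2-fold higher and 5 lower, beside the same 7.33% and 4.45%. The higher ones were Tnc, tenascin C (2.24), the microfibril gene Mfap4 (1.72), fibronectin Fn1 (1.62), the collagen cross-linking enzyme Lox (1.54) and Ctgf (1.43). The 5 lower ones were Lum, the proteoglycan Dcn (-3.14), Spp1 (-2.15), Fbln2 (-1.53) and Fbln1 (-1.22). Dcn was at 319 CPM, against 2810 CPM. Col1a1, the main fibrillar collagen gene outside the rule, was at 902 CPM, against 1125 CPM (-0.32), and the list median was 0.05. Among 16 measured complement and chemokine genes, 2 were higher (Cxcl14, 1.62, and complement C7, 1.07) and 5 lower, including Cxcl12 (-2.01), beside 7.33% and 4.45% of all measured genes, with a median of -0.36. Dissociation and immediate early genes formed 1 list. Of 16 measured, 1 was higher and 4 were lower, beside 7.33% and 4.45%, with a median of -0.45. The higher one was the heat shock gene Hspb1 (1.04, and 0.94 within suffix 4). Egr1 was at 572 CPM, against 1273 CPM (-1.15).

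**Figure D4:**
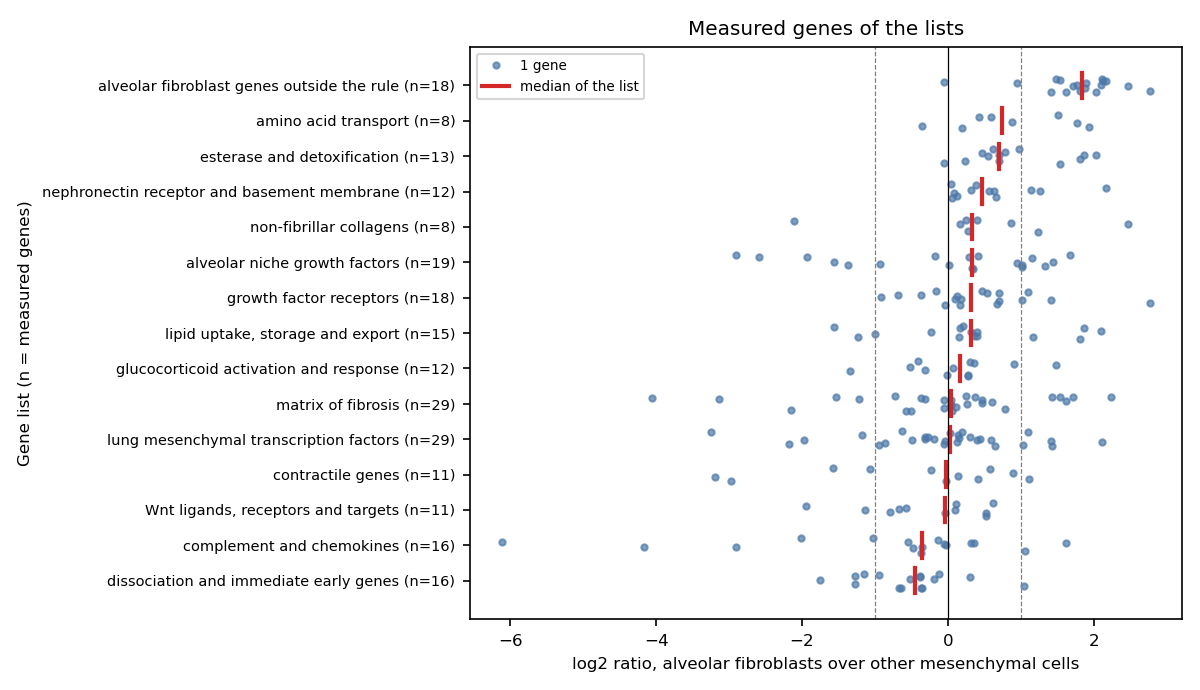
log2 ratio of alveolar fibroblasts over other mesenchymal cells for each measured gene (blue points) of 15 gene lists with 5 or more measured genes, and each list's median (red line). Dashed lines mark the 2-fold limits. The list of alveolar fibroblast genes has the highest median, 1.85, and that of dissociation and immediate early genes the lowest, -0.45.

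Genes outside the rule tracked how many marker genes a cell held. Cells that met the other conditions were grouped by 0 to 8 marker genes with a UMI, which gave 338, 234, 169, 128, 108, 120, 125, 80 and 24 cells. Tcf21 was at 134, 128, 217, 329, 720, 889, 1119, 1253 and 1204 CPM over these groups. Col13a1 was at 27.1 CPM with 0 marker genes, 116 CPM with 2, 234 CPM with 3, 431 CPM with 4 and 418 CPM with 8. Most of the increase of both thus lay between 1 and 5 marker genes. Dcn ran the other way, with 4283 CPM at 0 marker genes, 1774 CPM at 2, 868 CPM at 3, 350 CPM at 4 and 81.3 CPM at 5. At the threshold itself, cells just inside (3 marker genes) and just outside (2) differed less than the ends: G0s2 was at 1118 CPM and 723 CPM, Itga8 at 473 CPM and 306 CPM, and Fgfr4 at 27.0 CPM and 6.73 CPM. Cells with 3 marker genes thus lay closer in Dcn to those outside the rule than cells with 5 or more did. The median depth of the groups lay between 2426 and 3147 UMIs, highest with 8 marker genes, and the part of depth in these orders was not tested.

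**Figure D5:**
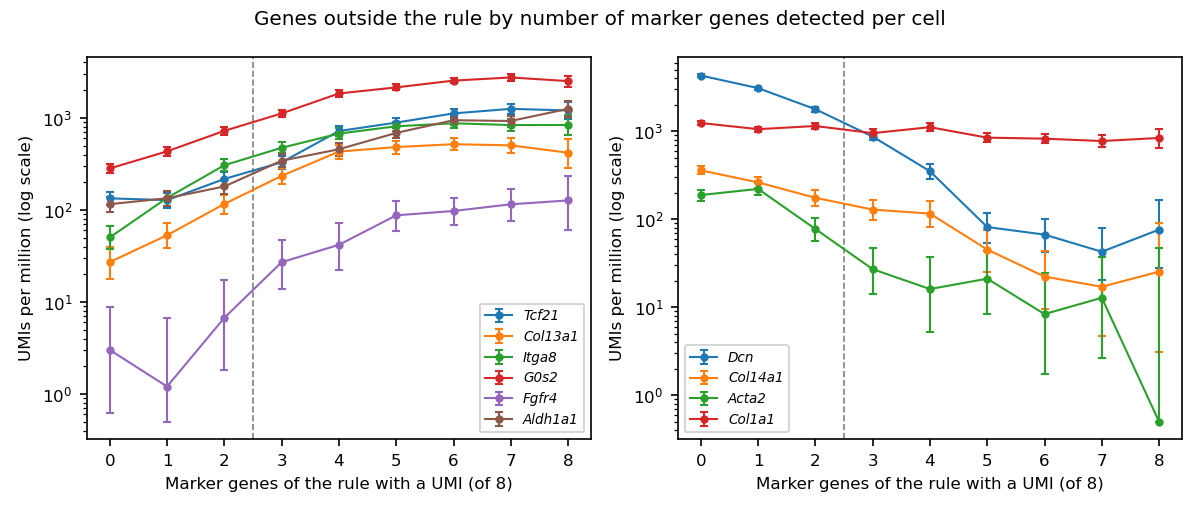
Level of 10 genes outside the rule (CPM, log axis) in cells grouped by the number of the 8 marker genes with a UMI. Lines at points are 95% Poisson intervals, the dashed line is the threshold of 3 marker genes, and Acta2 at 8 marker genes, with 0 UMIs, is drawn at 0.5. Tcf21 reaches 1204 CPM and Dcn 76.1 CPM in cells with all 8.

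From the other mesenchymal cells, 3 classes were taken by the genes the rule excluded, each without Ptprc and with exactly 1 of the 3 signals: 265 cells with Cdh22 or Kcnk2, 631 cells with Hhip and 328 cells with Pi16. Of the 3 classes, the Cdh22/Kcnk2 cells differed from the alveolar fibroblasts in the fewest genes. Of 3433 genes measured against them, 69 (2.01%) were 2-fold higher in alveolar fibroblasts and 45 (1.31%) lower, whereas 388 of 3660 (10.6%) were higher and 215 (5.87%) lower against Hhip cells, and 432 of 3631 (11.9%) were higher and 294 (8.1%) lower against Pi16 cells. Of the 18 alveolar fibroblast genes outside the rule, none was 2-fold higher than in Cdh22/Kcnk2 cells (median log2 ratio 0.63). Of the same genes, 17 were higher than in Hhip cells (median 2.61) and 16 than in Pi16 cells (median 2.92). Against Cdh22/Kcnk2 cells, 1 of 13 detoxification and esterase genes was higher, and 2 of 26 matrix genes linked to fibrosis. None was higher of 8 amino acid transport genes, 12 receptor and basement membrane genes, 14 lipid genes, 16 niche factors and 18 growth factor receptors. Over all genes measured against this class, 2.01% were higher. The classes differed in how many cells met the marker condition of the rule: 145 of the 265 Cdh22/Kcnk2 cells (54.7%) held 3 or more marker genes, 44 of the 631 Hhip cells (6.97%) and 7 of the 328 Pi16 cells (2.13%). The part of this in the counts was not tested. Depth was not the same in these classes: the median was 2612 UMIs in alveolar fibroblasts, 3745 in Cdh22/Kcnk2 cells, 2543 in Hhip cells and 3511.5 in Pi16 cells.

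Col13a1, Tcf21 and Itga8 were highest in alveolar fibroblasts and next highest in Cdh22/Kcnk2 cells. Col13a1 was at 418 CPM in alveolar fibroblasts (388 to 449), 215 CPM in Cdh22/Kcnk2 cells (188 to 245), 53.2 CPM in Hhip cells and 26.6 CPM in Pi16 cells. Tcf21 was at 827 CPM (785 to 871), 415 CPM (377 to 456), 120 CPM and 180 CPM in the same classes. Itga8 was at 719 CPM (680 to 760), 427 CPM (388 to 469), 96.7 CPM and 54.9 CPM. Npnt, a rule gene, was at 1061 CPM in Cdh22/Kcnk2 cells, of which 81.5% held a UMI of it.

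What separated alveolar fibroblasts from the Cdh22/Kcnk2 cells by more than 2-fold was a short set. Among the 8 largest ratios, Jchain, Slpi, Upk3b, Gpm6a and Aqp1 drew from 49.3% to 99.1% of their UMIs in alveolar fibroblasts from 1 cell each. The other 3 were Trf, which encodes the iron carrier transferrin, at 264 CPM, against 71.6 CPM (log2 ratio 1.88, 1.53 to 2.26), the mesothelial marker Upk1b (1.92, 1.25 to 2.65) and 1810011O10Rik (1.96, 1.19 to 2.82). The Cdh22/Kcnk2 cells had more Igfbp4, an insulin-like growth factor binding protein, with 227 CPM in alveolar fibroblasts, against 884 CPM in them (-1.96, -2.13 to -1.79), and more Rbp4, the retinol carrier, with 97.7 CPM, against 354 CPM (-1.86). Gdf10 (-2.06), the potassium channel gene Kcnj8 (-1.86), Map1b (-2.44), Add3 (-2.11) and Ccl11 (-2.96) were lower as well, and 41.1% of the Ccl11 UMIs of the Cdh22/Kcnk2 cells came from 1 cell. All 77 Cxcl13 UMIs of the Cdh22/Kcnk2 cells were in 1 cell, and the gene had a UMI in 0.342% of alveolar fibroblasts and 0.377% of them.

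Against Hhip cells, genes such as P2ry14, Lgr6 and Cdh4 were nearly absent from the alveolar fibroblasts. P2ry14 was at 3.41 CPM in alveolar fibroblasts, against 459 CPM in Hhip cells (log2 ratio -7.07, -8.52 to -5.95). Lgr6, a receptor of R-spondins, had 1 UMI, against 143, Cdh4 had 2, against 324, and Tcap, a protein of the sarcomere, had 2, against 205. Acta2 was at 17.0 CPM, against 384 CPM. In Cdh22/Kcnk2 cells, P2ry14 and Lgr6 had 1 UMI each, Cdh4 had a UMI in 4 cells and Acta2 was at 31.0 CPM. Low levels of these genes were thus shared with that class. Among the highest against Hhip cells were Chst3 (4.59), Gja5 (4.22), Gm14964 (4.11) and Scn3a (3.55). Against Pi16 cells, Scn3a was at 354 CPM in alveolar fibroblasts, against 9.97 CPM (5.15, 4.33 to 6.11), Chst3 and Cpm were both at 5.05 and Adrb3 was at 4.91. Scara5 was at 3.98 CPM, against 312 CPM (-6.29, -7.62 to -5.23), Sfrp4, a secreted Wnt antagonist, at -5.57, Ccl11 at -5.52 and Ackr3, a scavenging chemokine receptor, at -5.37. Ptgs2, Anpep and Lsamp had 1, 2 and 2 UMIs, against 75, 92 and 84. These lists share the alveolar fibroblasts as one side, and each comparison stands on its own.

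Alveolar fibroblasts of suffixes 1 and 4 were also compared with each other. Of 4158 measured genes, 566 (13.6%) were 2-fold higher in suffix 1 and 278 (6.69%) lower, and at 99618 UMIs in suffix 1, a gene at 50 CPM had about 5 UMIs there. Apart from sex-linked genes, the highest ratios rested on 5 to 7 UMIs in suffix 1. Fgfr4 was at 10.0 CPM in suffix 1 and 77.6 CPM in suffix 4. Cdkn1a, a cell cycle inhibitor, was at 30.1 CPM, against 222 CPM (log2 ratio -2.88, -5.17 to -1.32), and in other mesenchymal cells the same suffixes differed by -1.53. Dcn was at 823 CPM in suffix 1 and 267 CPM in suffix 4, with intervals of 655 to 1022 and 241 to 295 CPM. Such intervals leave out the spread between cells, and in suffix 4 the variance of thinned Dcn counts over their mean was 5.58. Itga8 was at 1024 CPM (835 to 1243) and 707 CPM (664 to 751), and G0s2 at 1144 CPM (944 to 1375) and 2085 CPM (2012 to 2161). Depth, sex and whatever the samples differ in cannot be told apart here.

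Some genes that were 2-fold higher in alveolar fibroblasts sat next to each other in the genome. In GENCODE vM21 (GRCm38), 10 pairs of adjacent genes were both among the measured genes 2-fold higher, rule genes included, and 8 of them did not overlap. Hsd11b1 (chr1:193221634-193264075, minus strand) and G0s2 (chr1:193272161-193273217, minus strand) lay 8085 bases apart. Spon1, an extracellular matrix protein, and Rras2, a small GTPase, lay 3411 bases apart (log2 ratios 1.90 and 1.28), Adrb3 and Eif4ebp1, a translation repressor, 9712 bases (2.65 and 1.00), and the metalloproteases Adamts15 and Adamts8 20109 bases (1.31 and 2.03). Bmp3 and Prkg2, a cGMP-dependent kinase, lay 45376 bases apart (1.67 and 2.08). How many such pairs other sets of this size give was not tested.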

How the data were processed

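The values are UMI counts, whole numbers that the authors deposited without normalization for 27998 genes, made with STAR 2.5.1 and Cell Ranger 1.3.0 on mm10, per the submitters' processing notes. The calling of cells is not given in these sources, and the deposited normalized table was not used. No column ties a suffix to a sample, so the table is 1 pooled sample of 35262820 UMIs and no test was run. The members, gene lists and thresholds were chosen with earlier results of these data known.

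Barcodes with under 500 genes (318) or over 10% mitochondrial UMIs (105) were dropped. Suffixes held 691 to 3022 kept barcodes. UMIs were summed per group, scaled to CPM and compared as a log2 ratio at 50 CPM or more in either group. A ratio against 0 UMIs used a floor of 3 counts, and none was given where both groups had 3 UMIs or fewer or where the floor exceeded the other group's level. Ratios have exact conditional binomial, levels exact Poisson and shares Clopper-Pearson intervals at 95%. The 121 rows that share a symbol were named in no list. Named genes are the 15 of the rule, the 20 highest and 10 lowest ratios that were also 2-fold within suffix 4 (the 1 suffix with 50 or more members), leaving out sex-linked genes and immune, endothelial, epithelial and erythroid markers, the members that account for each list's count, and the 8 largest ratios each way per class or suffix comparison. Dcn, Itga8 and G0s2 between suffixes, Acta2 against Hhip cells, Tbx4, Tagln and the neighbouring pairs were chosen after their values were seen. Of 463 list symbols, 460 were in the table. Doublets called by Scrublet (scanpy 1.11.5) were left in, and removed as an alternative: 75 of 9994 (0.750%), with 3 alveolar fibroblasts. The ratio was tested on simulated Poisson sums with known fold changes. These had no added spread between cells, so that test does not cover such spread. Python 3.11.15, numpy 2.4.6, scipy 1.17.1 and pandas 2.3.3 were used. Of 27998 table genes, 27645 had their ID in GENCODE vM21.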

Additional observations from a re-analysis of the deposited data

How the results depend on the processing

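No paired analysis was possible because the pooled table holds no replicates and its suffixes are not tied to labelled samples. Over 21 alternative settings, the number of alveolar fibroblasts moved most with 1000 genes and 5% mitochondrial UMIs as the cell filter (360 cells) and without suffix 4 (116 cells), and lay between 457 and 842 under the other rules and filters. Without suffix 4, 394 genes were 2-fold higher and 240 lower. A minimum of 20 CPM gave 399 higher and 359 lower genes, and one of 100 CPM gave 82 lower genes. Within suffix 1, a setting added after seeing the data, 731 were higher and 465 lower. These settings have fewer cells or another set of measured genes. With 4 or more marker genes required, the log2 ratio of Jchain reversed, to -4.29, since the cell that holds nearly all its UMIs has 3 marker genes. Of the 30 leading genes, 28 to 30 were 2-fold the same way under each setting. They were chosen as 2-fold in the main setting and within suffix 4, and a changed CPM minimum leaves their ratios as they are. The count was thus fixed in advance within suffix 4 and under minimums of 20 and 100 CPM. Every other setting reuses cells of the main one. Of 15 list medians, 10 to 12 were above 0, against 11. The median of the alveolar fibroblast genes ran between 1.71 and 2.31, and that of the dissociation and immediate early genes between -0.98 and -0.34. Of 240 alternative list medians, 209 lay within 0.2 and 18 changed sign, in 5 lists with medians between -0.36 and 0.05. Of 733 alternative gene ratios, 539 lay within the counting interval. These 539 include the ratios under minimums of 20 and 100 CPM, which equal the main ratios by construction. Other alternatives added after seeing the data were suffixes 1 and 4 only, other mesenchymal cells under 3 marker genes, and leaving out the members rich in Jchain or Sftpc. Leaving out single suffixes other than 4 was run for the number of cells. With 46 cells in suffix 1 and 12 to 27 in suffixes 2, 3, 5 and 6, genes under about 50 CPM cannot be compared between suffixes.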

Other observations

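A few alveolar fibroblasts carried genes of other cell types in large amounts. The cell with 1039 Jchain UMIs, of suffix 4, held 13652 UMIs in all, 3 marker genes and 15 UMIs of Col1a2 and Col3a1. The cell with 597 Sftpc UMIs, of suffix 3, held 10912 UMIs, 3 marker genes and 3 collagen UMIs. The cell with the most Upk3b (59 UMIs) and Gpm6a (50 UMIs), both genes of the mesothelium, was also of suffix 3 and held 31034 UMIs, the most of any alveolar fibroblast, with 13 collagen UMIs. Scrublet called none of these cells a doublet, and called 3 alveolar fibroblasts (0.513%) and 26 other mesenchymal cells (1.22%). The part of doublets and free RNA in these cells was not tested.

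Spread among the 448 alveolar fibroblasts of suffix 4 with 1500 or more UMIs was described by the variance of thinned counts over their mean. Beside Jchain and Gm26870, it was high for the non-coding RNA Malat1 (30.3), for Mgp, matrix Gla protein (16.6), with 30.6 UMIs per thinned cell and a UMI in every cell, and for the metallothioneins Mt2 (12.6) and Mt1 (9.69), with UMIs in 8.26% and 20.1% of cells. It was 5.58 for Dcn, with a UMI in 21.2% of these cells, 4.92 for elastin (Eln) and 3.66 for G0s2.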
